A study of Mus musculus with 6 samples.

Results

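The genes described here are the classical axon guidance ligands and receptors of the mouse: semaphorins and their plexin receptors, ephrins and their Eph receptors, and Slits and their Robo receptors. They were chosen by symbol, and 57 of 58 listed genes, out of 54134 entries in the count tables, reached at least 10 reads in at least 2 libraries. They comprise 30 ligands (20 semaphorins, 7 ephrins and 3 Slits) and 27 receptors (14 Eph receptors, 9 plexins and 4 Robos). The 1 listed gene under that minimum was Efna4, with 0 to 8 reads per library. Opposite-strand transcripts of Plxna4 (3 symbols, at most 22 reads) were left out.

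Guidance cues steer growing axons by attraction or repulsion, and many of them stay expressed in the adult cortex, where they act on dendrites, spines and synapses. Class 3 semaphorins are secreted and signal through plexins together with neuropilins, while the other vertebrate semaphorins are membrane-bound. Ephrins are held on the cell surface, so they signal at cell contacts and in both directions, and Slits are secreted repellents read by Robo receptors.

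Prefrontal cortex tissue was taken from mice at 6 to 8 weeks of age, and ribosome-depleted total RNA was sequenced. The 3 groups had 2 libraries each, from separate mice according to the design text. The first was wild type (C57BL/6 x C3H) given vehicle. The second carried the Shank3 +/∆C genotype, a heterozygous truncating allele of a postsynaptic scaffold gene, and was also given vehicle. The third had the same genotype and was treated with GSK-LSD1, an inhibitor of the histone demethylase LSD1 (Kdm1a). The 2 mutant groups are called vehicle mutants and treated mutants, and their libraries Shank3 vehicle and GSK-LSD1 libraries. No wild-type group given GSK-LSD1 is among the samples, and the sources used here do not state dose, timing or sex. The comparisons ask how the members differ in mutants under vehicle, with the inhibitor among mutants, and between treated mutants and controls. The last of these shares libraries with each of the others, so they are not independent.

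Libraries held 14133834 to 28646960 counted reads, and 3 reads in a library, the floor used here, equal 0.105 to 0.212 per 1000000 counted reads. Levels are given as CPM, counts per 1000000 of the TMM-adjusted library total. This floor covers counting error only. The tissue label was checked against cell markers. The 5 excitatory neuron markers summed to 2662 to 3672 CPM, the 5 striatal markers to 81.2 to 107 CPM, and no marker of any list was at 0 in all libraries. Markers of hypothalamus, septum and preoptic area summed to 57.4 CPM in GSK-LSD1 library 2, most of it Zic1 (49.3), and to 14.1 to 28.1 CPM in the other 5. Members took 0.445% and 0.404% of the reads in wild type, against 0.358% to 0.368% in the 4 mutant libraries. Wild-type library 1 held the highest value of 29 of the 57 members, against 3 to 8 for each of the others. For members, differences from wild type that passed, the number passing and their median are also given without this library. Sums, family medians, unadjusted and overlap counts, and most members that did not pass are given only with it. The same holds for all differences of cell type markers and of the other guidance genes listed below.

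Per kilobase of annotated exon, the receptors Ephb6 (mean of 6 libraries 77.0 RPKM) and Epha4 (52.9) had the highest levels. The membrane semaphorins Sema6b (42.1) and Sema7a (35.5) and the ephrin Efnb3 (22.2) followed. Ephb6 lacks kinase activity, Epha4 binds both ephrin classes, and Sema7a is anchored by a lipid. At the low end were the receptors Epha1 (0.179) and Epha2 (0.264) and the ligand Sema3b (0.379). Ranges of neighbours overlapped across libraries: Ephb6 lay at 56.9 to 105 RPKM, Epha4 at 44.6 to 59.5, Sema6b at 36.5 to 50.9 and Sema7a at 31.8 to 38.4. Efnb3 (18.3 to 25.6) lay apart from these. Within each of the 6 libraries, however, these genes kept the same order. Eph receptors made up 35.1% of the summed level of all members and semaphorins 28.1%, with plexins at 17.0%, ephrins at 11.2%, Slits at 5.33% and Robos at 3.36%. Because the length covers all annotated exons, genes with long exons that are rarely used appear lower on this scale.

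**Figure D1:**
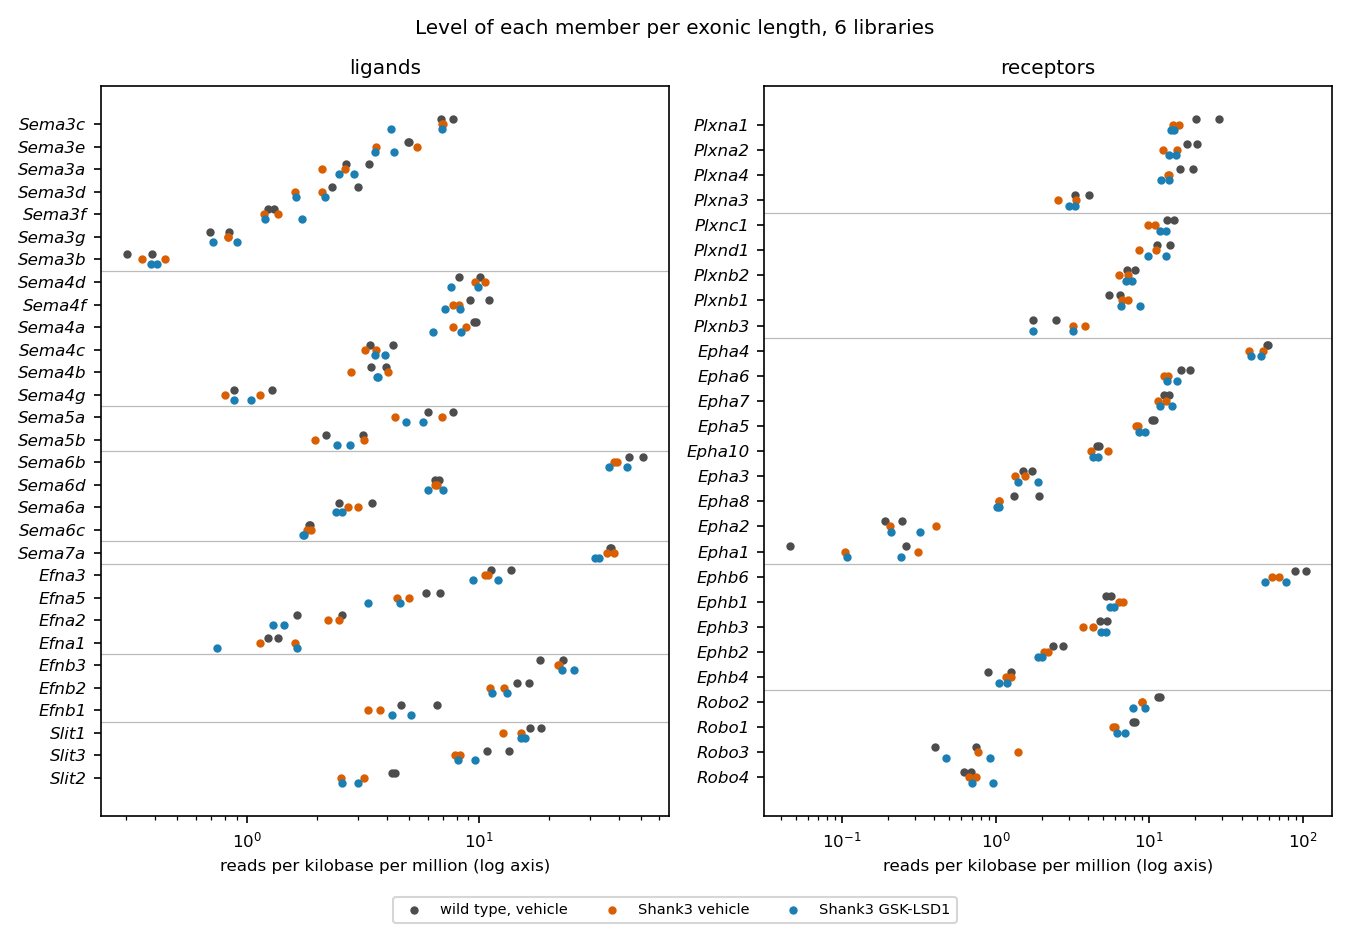
Level of each member in RPKM (CPM per kilobase of exon, log axis) in the 6 libraries, ligands left and receptors right, with subfamilies separated by lines. Ephb6 and Epha4 lie furthest right among receptors, and Sema6b and Sema7a among ligands.

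In mutants given vehicle, 4 of the 57 members were lower than in wild type: the ligands Slit2 and Slit3, the Slit receptor Robo1 and the semaphorin receptor Plxna1. Of the rest 0 were higher and 53 did not pass (edgeR's quasi-likelihood test with Benjamini-Hochberg adjustment over 18705 genes, adjusted p under 0.05). The 4 are 7.02% of members, where 0.994% of all tested genes were lower and 0.278% higher (1.27% in all). At an unadjusted p under 0.05 there were 21 lower members (36.8%, against 8.24% of all tested genes) and 2 higher (3.51%, against 5.81%). The 2 groups of libraries did not overlap for 26 members with lower mutant values (45.6%, against 23.1%) and for 4 with higher ones (7.02%, against 23.1%). The median log2 fold change of members was -0.15, against 0.02 for all tested genes, and 41 members were negative (71.9%, against 47.7%). By family the medians were -0.57 for Slits, -0.33 for plexins, -0.22 for ephrins, -0.20 for Eph receptors, -0.13 for Robos and -0.08 for semaphorins. When wild-type library 1 or Shank3 vehicle library 1 was left out, 0 members passed, with a members' median of -0.14 or -0.19, and 0.03% or 0.0401% of all tested genes did. When Shank3 vehicle library 2 was left out, 1 member (Slit2) and 0.101% of all tested genes passed. Scaling by library size alone and a fit that was not robust also left 0 passing (0.187% and 0.0588% of all tested genes), whereas DESeq2 passed 9 (2.55%) and the fit with no filter 13 (2.5%), 2 of them higher. Leaving out GSK-LSD1 library 1 or 2 passed 12 each (3.14% and 3.31% of all tested genes), 11 lower and Plxnb3 higher. Members are longer (median exonic length 6.86 kb, against 3.79) and richer in GC (56.1%, against 49.2%) than all tested genes. With offsets for both, 2 members passed (Plxna1 and Slit3), and 0.823% of all tested genes did.

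**Figure D2:**
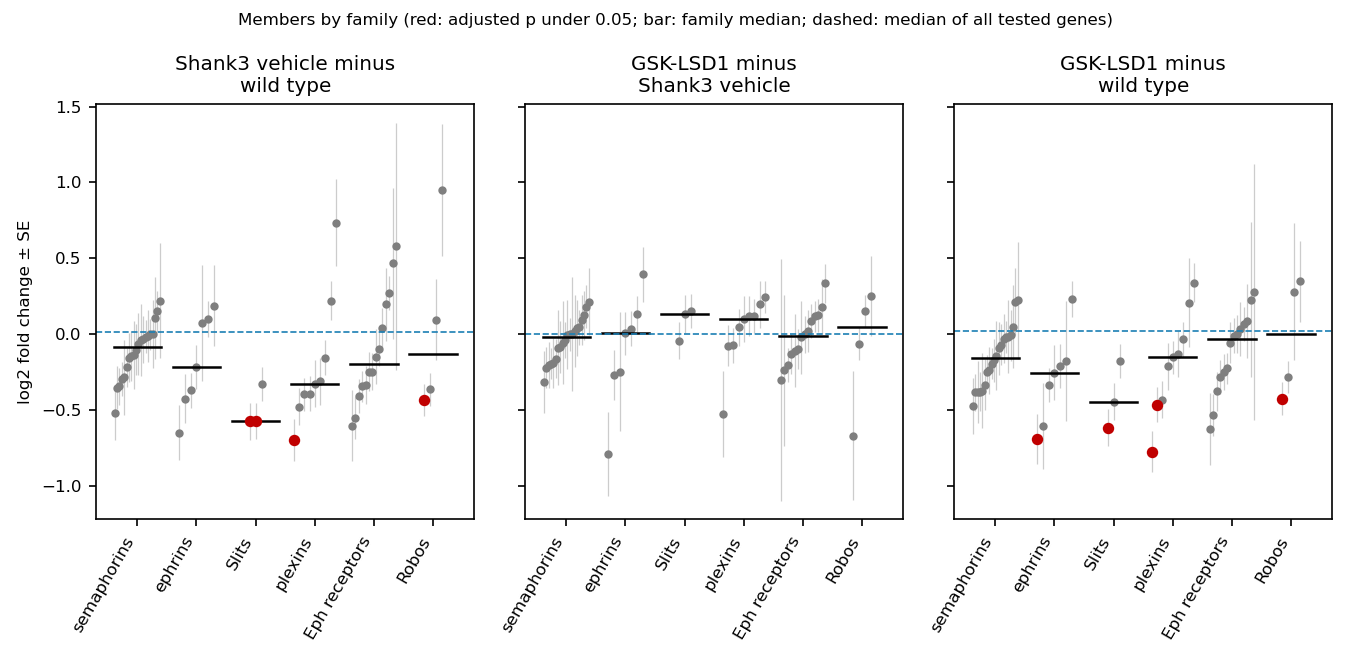
Log2 fold change ± SE of each member by family in the 3 comparisons, with red points for an adjusted p under 0.05, bars for family medians and a dashed line for the median of all tested genes. The red points, 4, 0 and 5 from left to right, all lie below zero.

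**Figure D3:**
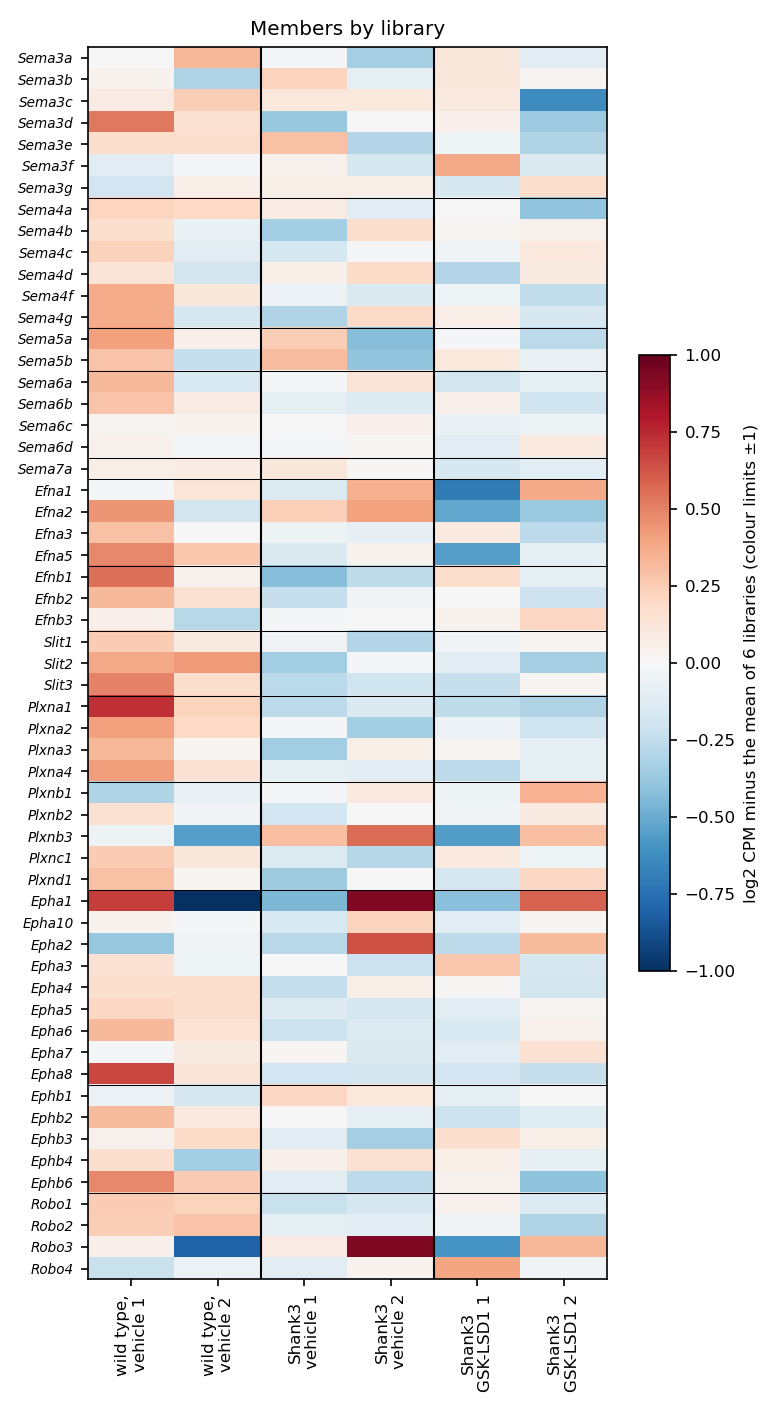
Log2 CPM of each member minus its mean over the 6 libraries, colour limits at 1 in either direction. Wild-type library 1 holds the highest value of 29 members, and Shank3 vehicle library 1 the lowest of 15.

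Slit2, a secreted repellent (GRCm38, chr5:47983138-48307733, plus strand), had 106.9 and 110.1 CPM in the wild-type libraries. It had 64.6 and 81.3 in vehicle mutants and 76.4 and 65.1 in treated mutants. Both wild-type libraries lay above all 4 mutant libraries, and the 2 mutant groups overlapped. Slit2 was lower in vehicle mutants by a log2 fold change of -0.57 ± 0.12 (SE, n = 2 libraries per group, edgeR adjusted p = 0.0302). In treated mutants against wild type it was lower by -0.62 ± 0.12 (edgeR adjusted p = 0.0147), and treated against vehicle mutants differed by -0.04 ± 0.12 (edgeR adjusted p = 0.999). Against wild type, vehicle mutants no longer passed when wild-type library 1 (-0.60) or 2 (-0.56) or Shank3 vehicle library 1 (-0.42) was left out. Treated mutants no longer passed when wild-type library 1 (-0.64) or GSK-LSD1 library 2 (-0.51) was left out, and with offsets for length and GC content it was -0.42 and did not pass.

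Slit3, a second secreted Slit (chr11:35121224-35708507, plus strand), had 81.5 and 65.4 CPM in wild type, 47.9 and 50.3 in vehicle mutants and 49.3 and 58.6 in treated mutants. The wild-type libraries were again above all mutant libraries. It was lower in vehicle mutants by -0.58 ± 0.12 (edgeR adjusted p = 0.0322), while the value in treated mutants against wild type, -0.44 ± 0.12 (edgeR adjusted p = 0.0654), did not pass. The difference in vehicle mutants no longer passed when wild-type library 1 (-0.42) or Shank3 vehicle library 1 (-0.55) or 2 (-0.61) was left out. Slit1, the Slit with the highest level per length, had 109.9 and 98.1 CPM in wild type, 90.0 and 75.3 in vehicle mutants, and 90.0 and 93.7 in treated mutants. Its values did not overlap between wild type and either mutant group, but no comparison passed (-0.33 ± 0.11 in vehicle mutants, edgeR adjusted p = 0.171).

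The Slit receptor Robo1 (chr16:72308306-73046095, plus strand) had 133 and 130.0 CPM in wild type, 95.4 and 99.2 in vehicle mutants and 114.5 and 101.5 in treated mutants. The 2 vehicle groups did not overlap, and the treated libraries lay between them. Robo1 was lower in vehicle mutants by -0.43 ± 0.10 (edgeR adjusted p = 0.0485). It did not pass when wild-type library 1 (-0.42) or 2 (-0.46) or Shank3 vehicle library 1 (-0.41) or 2 (-0.46) was left out. Treated against vehicle mutants differed by 0.15 ± 0.10 (edgeR adjusted p = 0.975), and treated mutants against wild type by -0.28 ± 0.10 (edgeR adjusted p = 0.177).

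Robo2, the second main neuronal Slit receptor (chr16:73891839-74411825, minus strand), had 194 and 199 CPM in wild type, 153.5 and 152 in vehicle mutants and 159.5 and 133 in treated mutants. Wild-type values were the highest, without overlap. Of its 3 comparisons, that of treated mutants with wild type passed (-0.42 ± 0.11, edgeR adjusted p = 0.0454), and vehicle mutants differed from wild type by -0.36 ± 0.11 (edgeR adjusted p = 0.111). The call in treated mutants did not hold when wild-type library 1 (-0.44) or 2 (-0.41), Shank3 vehicle library 1 or 2 (-0.43 each) or GSK-LSD1 library 2 (-0.30) was left out. Robo3, which modulates midline crossing, had 5.13 and 2.78 CPM in wild type, 5.24 and 9.57 in vehicle mutants and 3.26 and 6.27 in treated mutants. Its value in vehicle mutants was the most positive of all members (0.95 ± 0.43, edgeR adjusted p = 0.383), without overlap, and it passed as higher only with no filter. The endothelial Robo4 ranged from 3.29 to 5.09 CPM and did not pass.

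**Figure D4:**
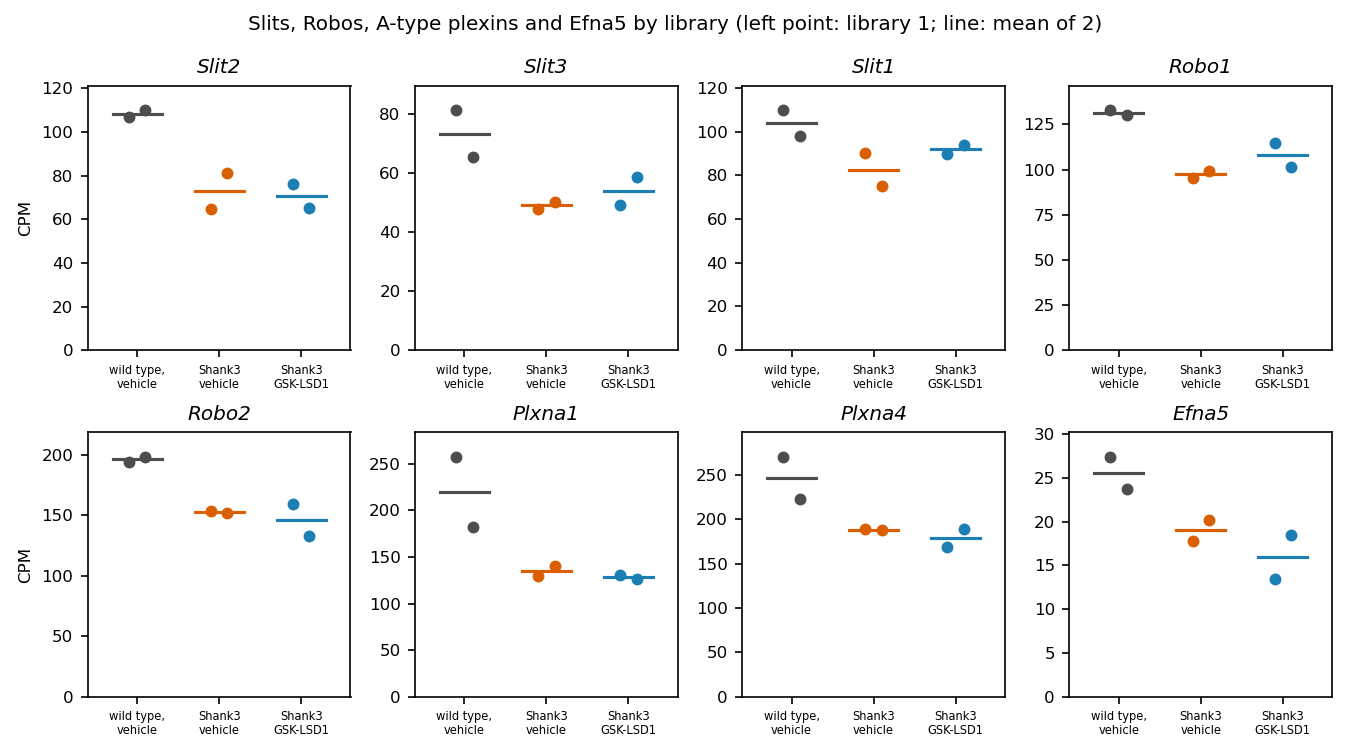
CPM of the 3 Slits, Robo1, Robo2, Plxna1, Plxna4 and Efna5 in each library, library 1 left of library 2, with a line at the mean of 2. In each panel both wild-type points lie above all 4 mutant points.

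The sequences upstream of the members that passed are shown because their genes are the ones the comparisons turn on. Start windows of RefSeq (GRCm38.p6), 250 bases before the start, were found for 50 of the 57 members and for 5 of the 7 that passed in any comparison. Capitals mark the GC box GGGCGG on either strand, which reads CCGCCC on the other. Slit3 is not shown, since 232 of its 250 bases lie over an annotated exon, and of the 3 windows of Robo2 the one at the annotated gene start is shown. In Slit2 the 17 bases that reach into an annotated exon were left off. The Robo1 window lies in an intron, 354843 bases after the annotated start of the gene, and those of Robo2 and Efna5 end at it. Each is printed in the direction of transcription: Slit2 from chr5:47982905-47983137 (plus), Robo1 from chr16:72662899-72663148 (plus), Robo2 from chr16:74411826-74412075 (minus) and Efna5 from chr17:62881318-62881567 (minus).
Slit2: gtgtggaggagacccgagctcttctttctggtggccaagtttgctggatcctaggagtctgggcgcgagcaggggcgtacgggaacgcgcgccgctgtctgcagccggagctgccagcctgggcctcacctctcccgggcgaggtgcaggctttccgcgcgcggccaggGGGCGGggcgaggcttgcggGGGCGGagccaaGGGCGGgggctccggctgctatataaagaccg
Robo1: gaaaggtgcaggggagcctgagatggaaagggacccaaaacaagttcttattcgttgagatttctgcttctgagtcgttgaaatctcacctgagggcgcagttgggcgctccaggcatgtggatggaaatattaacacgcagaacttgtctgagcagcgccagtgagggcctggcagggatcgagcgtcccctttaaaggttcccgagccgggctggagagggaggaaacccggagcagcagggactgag
Robo2: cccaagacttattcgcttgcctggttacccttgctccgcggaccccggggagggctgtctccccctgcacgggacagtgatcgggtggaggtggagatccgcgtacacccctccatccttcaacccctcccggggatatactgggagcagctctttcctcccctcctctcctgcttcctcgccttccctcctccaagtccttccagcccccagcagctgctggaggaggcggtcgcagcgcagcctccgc
Efna5: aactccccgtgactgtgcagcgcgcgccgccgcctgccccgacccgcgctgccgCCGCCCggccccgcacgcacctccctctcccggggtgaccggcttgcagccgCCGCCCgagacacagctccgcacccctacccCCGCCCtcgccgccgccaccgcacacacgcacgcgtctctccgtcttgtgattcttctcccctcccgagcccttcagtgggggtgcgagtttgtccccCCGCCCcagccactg
Slit2 held 3 GC boxes and Efna5 4, and the windows of Robo1 and Robo2 held 0. Of all 32851 windows of this length 32.7% held at least 1 GC box, and 71.2% of the 66 windows of members did. The Slit2 window also held 1 TATAAA match, found on either strand in 12.4% of all windows, and 1 match to the EGR motif GCGGGGGCG, which overlaps a GC box and was found in 2.57%. The matches describe the letters only.

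Plexins signal for semaphorins by acting on small GTPases, and the A-type plexins pair with neuropilins for the secreted class. Plxna1 (chr6:89316314-89362620, minus strand) had 257.8 and 181.8 CPM in wild type, 129.9 and 140.6 in vehicle mutants and 130.7 and 126 in treated mutants. Both wild-type libraries exceeded all mutant ones, and wild-type library 1 was above library 2. The log2 fold change was -0.70 ± 0.14 in vehicle mutants (edgeR adjusted p = 0.0302) and -0.77 ± 0.14 in treated mutants against wild type (edgeR adjusted p = 0.0113). Treated and vehicle mutants differed by -0.08 ± 0.14 (edgeR adjusted p = 0.999). The first difference no longer passed when wild-type library 1 (-0.43) or Shank3 vehicle library 1 (-0.65) or 2 (-0.76) was left out, nor the second when wild-type library 1 (-0.51) or GSK-LSD1 library 2 (-0.75) was. An antisense gene overlaps 970 bases of Plxna1 and had at most 44 reads.

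Plxna4 (chr6:32144268-32588192, minus strand), a partner for class 3 and class 6 semaphorins, had 270.7 and 223.4 CPM in wild type, 188.8 and 187.5 in vehicle mutants and 168.6 and 189.3 in treated mutants. The groups did not overlap between wild type and mutants. It was lower in treated mutants than in wild type (-0.47 ± 0.11, edgeR adjusted p = 0.0373). This did not hold when wild-type library 1 (-0.32), Shank3 vehicle library 1 (-0.47) or GSK-LSD1 library 1 (-0.39) or 2 (-0.55) was left out. Its value in vehicle mutants was -0.39 ± 0.11 (edgeR adjusted p = 0.1), which passed under DESeq2 and with no filter. The other A-type plexins were also negative: Plxna2 was at -0.48 in vehicle mutants (edgeR adjusted p = 0.0622) and Plxna3 at -0.31, and neither passed in this fit. Plxna2 passed as lower in both comparisons with wild type under DESeq2, with no filter and with the replicate block. All 4 A-type plexins summed to 64.6 ± 10.8 RPKM in wild type, 45.0 ± 0.766 in vehicle mutants and 44.2 ± 0.497 in treated mutants (SD, n = 2).

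Among the other plexins 0 passed in any comparison in the fit used here. Plxnc1, the receptor of Sema7a, had 120.5 and 108.9 CPM in wild type, 91.5 and 82.5 in vehicle mutants and 108.2 and 97.9 in treated mutants. Its difference between the vehicle groups was -0.40 ± 0.11 (edgeR adjusted p = 0.0775), and it passed as lower under DESeq2 and with no filter. Values of the B-type plexins, which bind class 4 semaphorins, ranged from 11.3 CPM (Plxnb3) to 83.0 CPM (Plxnb1), and Plxnd1, the vascular and neuronal receptor of Sema3e, from 63.0 to 99.2 CPM.

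Of the 20 semaphorins 0 passed in any comparison in the fit used here, and Sema3d passed as lower in vehicle mutants with no filter. At an unadjusted p under 0.05, 4 were lower and 0 higher in vehicle mutants, and likewise 4 and 0 in treated mutants against wild type. The 4 are 20% of semaphorins, against 8.24% and 8.62% of all tested genes lower in these comparisons (5.81% and 7.11% higher). Sema3d, a secreted class 3 member, had 25.9 and 19.98 CPM in wild type, 13.8 and 18.0 in vehicle mutants and 18.6 and 14.0 in treated mutants (-0.52 ± 0.18 in vehicle mutants, edgeR adjusted p = 0.192). Sema4f, a transmembrane class 4 member, had 58.2 and 48.6, 43.2 and 40.7, and 43.7 and 37.7 CPM in the same order (-0.38 ± 0.12 in treated mutants against wild type, edgeR adjusted p = 0.111). In both genes all wild-type values lay above all mutant values. Sema6b, a transmembrane ligand of A-type plexins, ranged from 145 to 202 CPM, and Shank3 vehicle differed from wild type by -0.30 ± 0.11 (edgeR adjusted p = 0.229).

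Sema7a, the ligand of Plxnc1, varied little, with 122 and 122.8 CPM in wild type, 126.5 and 118 in vehicle mutants and 105 and 109 in treated mutants. Its difference between the vehicle groups was -0.00 ± 0.10. Sema6c and Sema6d varied least of all members, with a ratio of highest to lowest library of 1.09 and 1.16. Sema5a, a transmembrane semaphorin with thrombospondin repeats, had 144 and 112 CPM in wild type, 129 and 80.9 in vehicle mutants, and 107 and 90.4 in treated mutants, so the vehicle groups overlapped (-0.29 ± 0.25, edgeR adjusted p = 0.711). Sema3c had 29.8 CPM in GSK-LSD1 library 2 and 48.9 to 54.9 in the other 5. The remaining class 3 members ranged from 1.45 CPM (Sema3b) to 50.0 CPM (Sema3e), and Sema4a, Sema4b, Sema4c and Sema4g from 6.94 CPM (Sema4g) to 52.3 CPM (Sema4a). Sema5b ranged from 13.9 to 22.7 CPM and Sema6a from 21.2 to 30.3 CPM.

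Ephrin-A ligands are lipid-anchored and bind EphA receptors, while ephrin-B ligands span the membrane and bind EphB receptors. Efna5 (chr17:62604184-62881317, minus strand), known for its graded expression in cortical and sensory maps, had 27.4 and 23.7 CPM in wild type, 17.8 and 20.2 in vehicle mutants and 13.4 and 18.5 in treated mutants. Wild type was above both mutant groups. It was lower in treated mutants than in wild type (-0.69 ± 0.16, edgeR adjusted p = 0.0316). This difference did not pass when wild-type library 1 (-0.59) or GSK-LSD1 library 1 (-0.47) was left out. Vehicle mutants differed from wild type by -0.42 ± 0.16 (edgeR adjusted p = 0.225).

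Efnb1 had 22.7 and 16.0 CPM in wild type, 11.5 and 13.0 in vehicle mutants and 17.5 and 14.5 in treated mutants. It was the ephrin with the most negative value in vehicle mutants (-0.65 ± 0.18, edgeR adjusted p = 0.0873). It did not pass in the fit used here, and it passed as lower with no filter. Efnb2 was at -0.37 there and Efna3 at -0.22, while Efnb3, with 73.0, 58.1, 69.7, 70.2, 72.4 and 81.4 CPM from wild type to GSK-LSD1, was at 0.10 ± 0.12. Efna1 and Efna2 lay between 1.36 and 5.48 CPM.

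In the fit used here no Eph receptor passed in any comparison. The summed level of the 14 was 219.6 ± 12.8 RPKM in wild type, 171 ± 1.90 in vehicle mutants and 174 ± 15.8 in treated mutants (SD, n = 2). Within this sum, Ephb6 was at 97.4 RPKM in wild type and 66.3 in vehicle mutants, and Epha4 at 59.1 and 49.8. Against wild type 5 of the 14 had positive values in vehicle mutants and 5 in treated mutants. The family median was -0.20 in vehicle mutants and -0.03 in treated mutants. Ephb6 had 397 and 338 CPM in wild type, 264 and 237 in vehicle mutants and 292.5 and 215 in treated mutants. Wild type lay above both mutant groups, at -0.55 ± 0.14 (edgeR adjusted p = 0.065) and -0.53 ± 0.14 (edgeR adjusted p = 0.0561). Epha4 had 473 and 479.5 CPM in wild type, 359 and 443 in vehicle mutants and 428 and 373 in treated mutants (-0.25 ± 0.12 in vehicle mutants, edgeR adjusted p = 0.371). Epha6 had 96.8 and 85.1, 66.5 and 70.5, and 69.5 and 79.9 CPM (-0.41 ± 0.11, edgeR adjusted p = 0.0778). Ephb1 had a positive value in vehicle mutants, 0.27 ± 0.11 (edgeR adjusted p = 0.272). Epha1 shares 236 bases with Zyx on the other strand, and its 5 to 27 reads may include reads of that gene. Ephb6 did pass as lower in both comparisons with wild type under DESeq2 and with no filter, and in vehicle mutants Epha5 passed under DESeq2, and Epha6 with no filter and without either GSK-LSD1 library. The remaining Eph receptors ranged from 0.890 CPM (Epha2) to 178.7 CPM (Epha5).

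Among mutants, treatment with GSK-LSD1 passed the test for 0 of the 57 members, where 0.107% of all tested genes passed (0.102% higher, 0.00535% lower). DESeq2 and limma-voom also passed 0 (0.182% and 0.0855% of all tested genes). At an unadjusted p under 0.05, 3 members were higher (5.26%, against 3.18% of all tested genes) and 1 lower (1.75%, against 2.52%). These were Ephb3 (0.33 ± 0.13), Efnb1 (0.39 ± 0.18) and Plxnc1 (0.25 ± 0.11), and Efna2 (-0.79 ± 0.28), with edgeR adjusted p of 0.77, 0.873, 0.843 and 0.704. There were 28 positive and 29 negative members (50.9% negative, against 50.1%), with a median of -0.0021, against -0.0007 for all tested genes. The libraries did not overlap for 6 members with higher treated values (10.5%, against 17% of all tested genes) and 9 with lower ones (15.8%, against 16.6%). Leaving out GSK-LSD1 library 1 passed Sema3c, and leaving out GSK-LSD1 library 2 passed Plxnb3, both lower.

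Treated mutants against wild type gave 5 lower members and 0 higher: Plxna1, Slit2, Plxna4, Efna5 and Robo2. They are 8.77% of members, where 1.99% of all tested genes were lower and 0.636% higher (2.62% in all). At an unadjusted p under 0.05, 19 were lower (33.3%, against 8.62%) and 1 higher (1.75%, against 7.11%), the semaphorin receptor Plxnb1 (0.34 ± 0.13, edgeR adjusted p = 0.202). The median was -0.18, against 0.02 for all tested genes, and the groups did not overlap for 26 members with lower treated values (45.6%, against 22.4%) and 2 with higher ones (3.51%, against 23.5%). In all 44 members were negative (77.2%, against 47.4%). Family medians were -0.44 for Slits, -0.25 for ephrins, -0.16 for semaphorins, -0.15 for plexins, -0.03 for Eph receptors and -0.0009 for Robos. When wild-type library 1 was left out, 0 passed (0.03% of all tested genes) and the median was -0.08, when Shank3 vehicle library 1 was, 3 passed (2.07%), and when GSK-LSD1 library 2 was, Efna5 alone passed (0.993%).

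Cell type markers differed between the groups as well. Excitatory neuron markers summed to 3493 to 3672 CPM in wild type and 2662 to 3101 in the 4 mutant libraries, with 1 of 5 lower in vehicle mutants and 2 of 5 in treated mutants against wild type. Astrocyte markers summed to 1155 and 1516 CPM in wild type and 1810 to 2113 in mutants, with 2 of 6 and 4 of 6 higher. The part of these and the following lists in the members' lower values was not tested, and in bulk tissue fewer cells of a type and less RNA per cell cannot be told apart. Meningeal fibroblast markers summed to 130.3 and 47.7 CPM in wild type, 230.7 and 346 in vehicle mutants and 84.5 and 45.2 in treated mutants, with 0 of 4 passing. Most of each sum was Col1a1 (133.2 and 197 in vehicle mutants) and Col1a2 (91.0 and 139.9), and Dcn was negative in vehicle mutants (-0.26 ± 0.45). Single markers of 4 other cell types were higher in vehicle mutants: Gpr17 of oligodendrocyte precursors (0.94 ± 0.16), Itgam of microglia (1.22 ± 0.27), Itm2a of endothelium (0.48 ± 0.11) and Rgs5 of pericytes (0.58 ± 0.11), with edgeR adjusted p from 0.0235 to 0.0411. Each was the 1 marker of its list that passed, of 5, 6, 6 and 4. Markers were not recomputed under the alternatives or without wild-type library 1. The medians of these lists were 0.58, 0.30, 0.24 and 0.25 there, and 2 endothelial markers and 1 pericyte marker were negative. The 9 oligodendrocyte markers summed to 2397 and 2222 CPM in wild type, 5622 and 5657 in vehicle mutants, and 2263 and 5294 in treated mutants, so the treated libraries differed from each other. With the mean log2 CPM of these markers as a covariate, 1 member passed in vehicle mutants (Slit3), where 0.289% of all tested genes did. In treated mutants against wild type 5 passed (Slit2, Plxna4, Plxna1, Slit3 and Efna5), where 2.45% did. The marker level does not overlap between the vehicle groups, so that fit can hardly tell it apart from the genotype. Plxnb3, a plexin of oligodendrocytes, was at 16.2, 11.4, 20.6, 24.7, 11.3 and 20.6 CPM in library order, and Sema4d, a semaphorin of myelinating cells, at 77.7, 62.8, 74.1, 81.4, 58.0 and 75.9. For both, and for Sema6a (21.2), GSK-LSD1 library 1 held the lowest of the 6 values. Wild-type library 2 was close to it for Plxnb3 (11.4) and Sema6a (21.8), and Sema6a was highest in wild-type library 1 (30.3). Of the other members known from this lineage, Efnb3 was lowest in wild-type library 2 (58.1) and Sema5a in Shank3 vehicle library 2 (80.9). Plxnb3 differed between vehicle mutants and wild type by 0.73 ± 0.29 (edgeR adjusted p = 0.301) and did not pass, but it passed as higher with no filter, with only the 4 libraries compared, and when either GSK-LSD1 library was left out. The part of oligodendrocytes in its values was not tested.

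**Figure D5:**
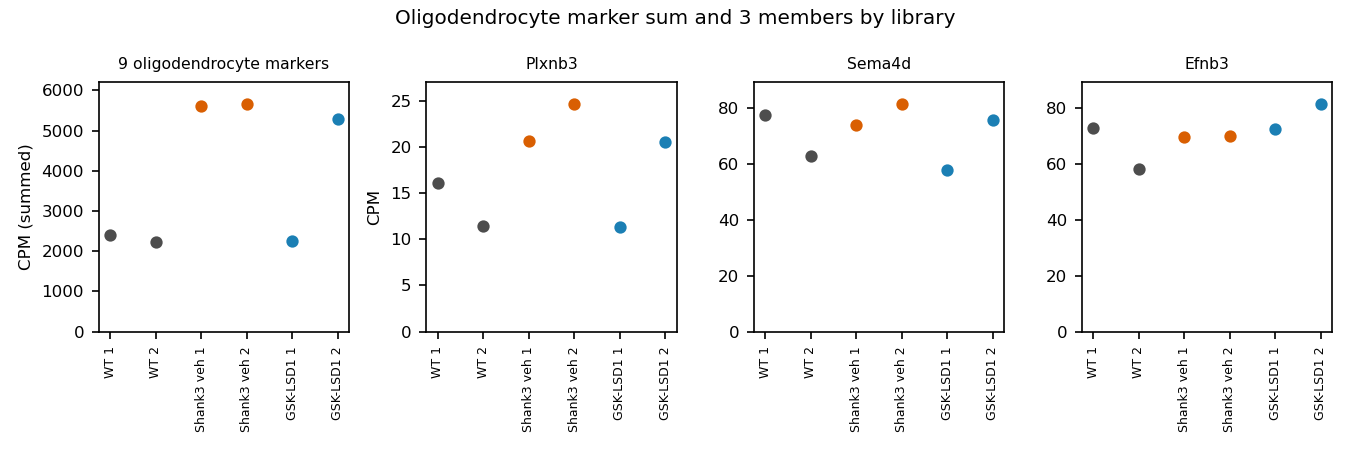
Summed CPM of 9 oligodendrocyte markers and CPM of Plxnb3, Sema4d and Efnb3 in each library. The marker sum is 2222 to 2397 in wild type and GSK-LSD1 library 1, and 5294 to 5657 in the other 3 libraries.

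A further list held 62 other guidance genes, of which 61 were tested. It comprised 5 semaphorin co-receptors, 37 cytoplasmic effectors, 17 genes of the separate netrin system and 3 Flrt genes. In vehicle mutants 2 were lower (3.28%, against 0.994% of all tested genes) and 0 higher, with a median of -0.13 (0.02 for all tested genes): L1cam, a cell adhesion co-receptor for Sema3a, with 285 and 242 CPM in wild type and 191 and 170.4 in vehicle mutants (-0.54 ± 0.12, edgeR adjusted p = 0.0331), and Nrp2, a class 3 semaphorin co-receptor, with 45.0 and 34.9 against 26.7 and 25.1 (-0.62 ± 0.14, edgeR adjusted p = 0.0348). In treated against vehicle mutants 0 passed (1 at an unadjusted p under 0.05), and Nrp2 was at 35.4 and 41.0 CPM in treated mutants (0.56 ± 0.14, edgeR adjusted p = 0.219). Treated mutants against wild type had 5 lower (8.20%, against 1.99%) and 0 higher, with a median of -0.12 (0.02 for all tested genes): Srgap3, an effector of Slit-Robo signalling (-0.64 ± 0.14), Flrt1 (-0.52 ± 0.11), the plexin-linked exchange factor Farp1 (-0.51 ± 0.11), L1cam (-0.49 ± 0.12) and the netrin receptor Dscam (-0.40 ± 0.10). These genes were not recomputed under the alternatives.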

How the data were processed

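Deposited values are whole-number read counts for each gene symbol, in separate tables per library. The submitters' processing notes name cutadapt, TopHat2, SAMtools, featureCounts and edgeR, with mm10 (GRCm38) as the build. The sources used here state no tool versions, annotation release or strand setting, so genes that overlap on opposite strands may share reads. The members and lists were chosen with earlier results of these data known. Genes were filtered with filterByExpr, scaled by TMM and tested with edgeR 4.0.16 (R 4.3.3) in a robust quasi-likelihood model of 3 groups over the 6 libraries (3 residual degrees of freedom). Tests were two-sided, adjusted by Benjamini-Hochberg over 18705 genes per comparison, threshold 0.05. The standard error (SE) equals the absolute log2 fold change over the square root of F. CPM are counts per 1000000 of the TMM-adjusted library total, and RPKM divides them by exonic length in GENCODE M21, which matched 100% of members. The procedure was tested on simulated data.

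Given in full are members that passed in any comparison and, per subfamily, the one with the smallest p and the one with the highest level per length. From the other guidance genes, those that passed and up to 3 per comparison with the smallest p could be named. Members named outside this rule were chosen after their values were seen. The alternatives comprised scaling by RLE, by upper quartile or by library size alone, other filters, DESeq2 1.42.0, limma-voom (limma 3.58.1), a fit that was not robust, a replicate block, only the 4 libraries compared, the 20 most abundant genes left out, offsets for length and GC content, an oligodendrocyte marker covariate, other thresholds, and fits that leave out 1 library at a time. Sampling noise was exceeded within each group (chi-square 9.41 to 12.6 per degree of freedom), so no library repeats another, and with 2 per group the p-values rest on a small spread.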

Additional observations from a re-analysis of the deposited data

How the results depend on the processing

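The number of members passing in Shank3 vehicle against wild type, 4 as reported, was 2 with upper quartile scaling, with limma-voom and with offsets for length and GC content. Of all tested genes 0.754%, 0.732% and 0.823% passed in these fits, and shares in brackets below are of all tested genes. The number was 0 with library size scaling (0.187%) and with the fit that was not robust (0.0588%), and 1 with the oligodendrocyte covariate (0.289%). It was 7 with only the 4 libraries compared (2.92%), with Plxnb3 higher and 6 lower. DESeq2 gave 9 (2.55%), and no filter 13 (2.5%), 2 higher and 11 lower. Thresholds of 0.1 and 0.01 gave 9 and 0. Shares of all tested genes at these thresholds were not computed in any comparison, so these counts have nothing to be set against. Leaving out each library in turn gave 0 to 12, of which at most 1 was higher (Plxnb3). In treated against vehicle mutants, 0 as reported, the covariate gave 1, Sema3c, which was lower (0.144%). In treated mutants against wild type, 5 as reported, upper quartile scaling, limma-voom and only the 4 libraries gave 3, library size scaling, the fit that was not robust and the offsets 2, DESeq2 7, no filter 8, thresholds of 0.1 and 0.01 gave 8 and 0, and leaving out libraries 0 to 7 (at most 1 higher, Plxnb1). Of all tested genes, 2.15% passed in this last comparison with upper quartile scaling, 2.09% with limma-voom and 1.92% with only the 4 libraries. Library size scaling passed 1.35% of them, the fit that was not robust 1.87%, the offsets 2.19%, DESeq2 3.5% and no filter 2.98%. The members' median ranged over left-out libraries from -0.27 to -0.14, from -0.04 to 0.03, and from -0.27 to -0.082, and with library size scaling the first was -0.08 and the last -0.10. Library size scaling moved the median of all genes to 0.09 and 0.10 in both comparisons with wild type. Deviations of same-numbered libraries from their group means were nearly uncorrelated between groups (-0.05, -0.06 and 0.08). This cannot show whether same-numbered mice were matched. With the replicate block the counts were 5, 0 and 6 (1.25%, 0.0962% and 2.7% of all tested genes). Robo1 (adjusted p = 0.0594, edgeR) and Robo2 (0.0511) were no longer among them, and Plxna2 and Ephb6 were added in both comparisons with wild type. Every passing member stayed negative in all 19 alternatives. Among 22 members named in full, a direction was given only to changes larger than their SE, which left out 15 of 66. Signs turned for Efna3 (0.0229) and Sema4d (-0.21) in Shank3 vehicle with the covariate, and, over left-out libraries, for Sema4d (-0.00347 to 0.30) and Sema5a (-0.67 to 0.0121) in Shank3 vehicle and Efnb1 in treated mutants against wild type (-0.50 to 0.00648). The cause was not tested. Members under 10 CPM (12 of 57) are measured least precisely.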
